A study of Mus musculus with 4 samples.

Results

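The genes described here handle the lipid of foam cells, the lipid-laden cells of atherosclerotic plaque. They were 35 genes of lipoprotein uptake, ester storage, hydrolysis and cholesterol efflux, listed by name and by the part each plays. The list was chosen with earlier results of these data known. A gene was taken as measured where a row of the array table carried its symbol and no other. This held for 31 of the 35, out of 22180 genes named in that way. Soat1, Acsl1, Nr1h2 and Spp1 had no such row and were not analysed here. All 31 reached a mean log2 value of 3.02, the median of all rows, and so were among the 12550 genes tested.

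The cells were primary vascular smooth muscle cells (VSMCs) grown for 5 days from collagenase-digested mouse thoracic aorta. Every mouse lacked Apoe (Apoe(−/−)), carried floxed Mmp14 (Mmp14(fl/fl)) and had been fed a Western diet for 3 months. The 2 knockout arrays came from Cre-positive mice, in which the SM22α promoter of smooth muscle drives Cre and deletes Mmp14, the gene of the membrane-anchored protease MT1-MMP. The 2 control arrays came from mice with the same alleles and no Cre. The labels give no age or sex. The design text names separate pairs of animals, and no label says which arrays form a pair, so the spread between arrays takes in mouse, culture and hybridisation together.

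Foam cells form when scavenger receptors bring modified lipoproteins into a macrophage or smooth muscle cell faster than cholesterol leaves it. In the lysosome, acid lipase frees cholesterol from its esters. Part of it is esterified again and kept in droplets coated by perilipins, and part is exported by ABC transporters, whose genes are switched on by the oxysterol-sensing LXR receptors. The contrast of knockout with control cells asks which of these steps differ at the transcript level when smooth muscle Mmp14 has been targeted in Apoe-null mice.

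The scavenger receptor Msr1, cholesterol ester hydrolases Nceh1 and Lipa and droplet coat gene Plin2 read higher in both knockout arrays than in either control. Vldlr and Lrp8, low-density lipoprotein receptor relatives, and the triglyceride synthesis genes Dgat1 and Dgat2 differed by -0.11, -0.21, -0.19 and -0.36. Their confidence intervals included 0, and 7316 of the 12550 genes tested had a negative difference. Msr1, a macrophage scavenger receptor, was 3.15-fold higher (log2 difference 1.66, SE 0.20), Apobec1, a cytidine deaminase that edits the Apob transcript, 2.63-fold (1.39, SE 0.15), and Nceh1, which hydrolyses cholesterol esters, 2.09-fold (1.06, SE 0.15). No member passed the test across all genes: limma called 0 of the 31 and 0 of all 12550 genes at an adjusted p under 0.05 (0% of genes), with 10 members and 1465 genes at an unadjusted p under 0.05. The smallest adjusted p of a member was 0.144, for Apobec1, and the smallest of any gene was 0.104. An exact two-sided permutation test of 2 against 2 arrays cannot give a p below 0.333.

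Both knockout arrays lay above both control arrays for 12 of the 31 members, or 38.7%, a pattern seen in 16.7% of all genes tested. They lay below both controls for 5 members (16.1%), against 27.5% of all genes. In 8 members (25.8%) the arrays did not overlap and the knockout mean was higher by at least 0.5, against 5.38% of all genes. At an unadjusted p under 0.05 in limma, 10 members were higher (32.3%) and 0 lower, against 4.89% and 6.78% of all genes. Because the members were chosen with earlier results of these data known, these shares describe the list and test nothing. The median difference was 0.38 over the members and -0.05 over all genes tested, and 20 members had a positive difference and 11 a negative one. Without knockout replicate 2 the members' median was 0.055, and without control replicate 1 it was 0.20. A single array overlaps less by construction, so these counts stand beside their own shares of all genes. With only knockout replicate 2 kept, 23 members (74.2%) lay above both controls and 5 (16.1%) below, against 31.7% and 41.4% of all genes tested. With only knockout replicate 1 kept, 12 (38.7%) lay above and 12 (38.7%) below, against 27.7% and 43.3%. Without control replicate 1 the members above and below were 14 (45.2%) and 6 (19.4%), against 29.5% and 41.5% of all genes, and without control replicate 2 they were 17 (54.8%) and 7 (22.6%), against 30.1% and 43.4%.

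**Figure D1:**
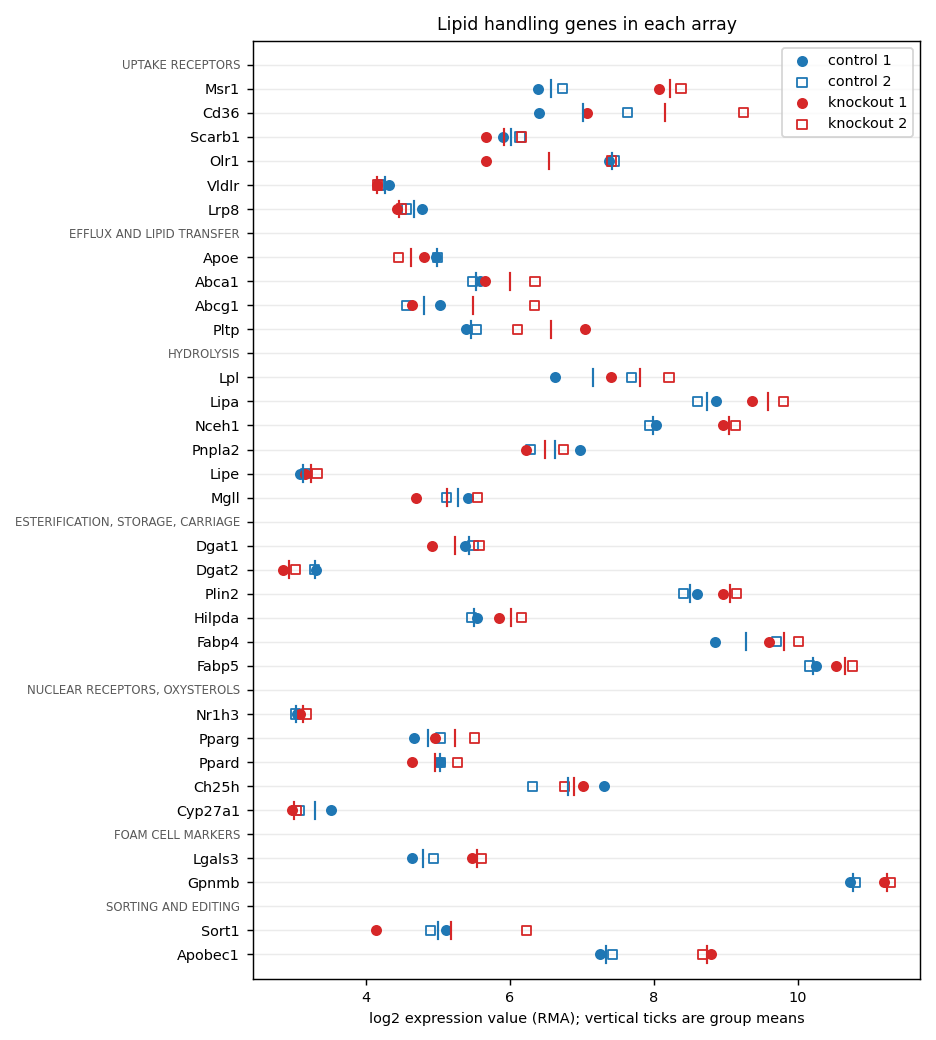
Log2 values of the 31 measured members in each array, grouped by role, with controls in blue and knockouts in red, array 1 as filled circles and array 2 as open squares, and group means as vertical ticks. Msr1, Nceh1 and Apobec1 show red points clear of blue ones, whereas Cd36, Abcg1 and Sort1 show knockout arrays far apart; levels of different genes are not comparable.

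Macrophage transcripts differed between the same groups, and their part in the members' differences was not tested. Of 20 macrophage markers, 20 had a positive difference, and the median was 1.15. Without overlap, 18 (90.0%) were higher, against 16.7% of all genes tested. At an adjusted p under 0.05, limma called 0 of the 20. The mean log2 level over these markers (their summed level divided by their number) was 6.92 to 6.93 in the controls and 7.84 to 8.16 in the knockouts. Ptprc, the leukocyte antigen CD45, read 6.60 and 6.68 in control arrays against 8.26 and 8.53 in knockout arrays. Adgre1, which encodes F4/80, read 6.07 and 5.96 against 7.92 and 7.59. None of the 20 was near the low end of the array in the controls, where the lowest level was 4.27, for Aif1. Only Msr1 and Apobec1 among the members had differences at or above the macrophage median. In these bulk samples, more cells of a type and more RNA per cell cannot be told apart.

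The labelled cell type was checked against its markers. The smooth muscle markers Acta2 (10.9 to 11.4 over the 4 arrays) and Tagln (9.77 to 10.5) were high in every array. Cnn1, Cald1 and Tpm2 read 7.77 to 9.74, Smtn, Myh11 and Lmod1 4.02 to 6.18, and Des, Mylk and Synpo2 3.50 to 4.06. Myocd, the master regulator of the contractile program, read 3.12 to 3.39, close to the filter level. Macrophage markers read from 4.27 (Aif1) to 11.0 (Lyz2) in the controls, so these levels alone do not settle the cell type. The 12 smooth muscle markers had a median difference of -0.01. The 11 tested of 12 endothelial markers had a median of -0.67. Without overlap, 8 (72.7%) were lower, against 27.5% of all genes tested, and limma called 0 of the 11 at an adjusted p under 0.05. Mean levels over all 12 were 4.89 to 5.28 in the controls and 3.98 to 4.05 in the knockouts. Fat cell markers were at the low end, with 1 of 6 measured above the filter level, Adipoq at 2.10 to 2.73 and Lep at 2.17 to 2.43, although Fabp4, Lpl, Pparg and Lipe among the members are also fat cell genes. The 6 measured lymphocyte markers all lay below the filter level, and the 6 tested fibroblast markers had a median of 0.37, which was -0.09 without control replicate 1. Mmp14 itself read 8.71 and 9.05 in control arrays against 8.27 and 8.19 in knockout arrays, a difference of -0.65 (limma, adjusted p = 0.319). Its row can include probes outside the floxed exons, which was not checked. What sets the size of the Mmp14 difference was not tested.

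The promoters of the members with the largest positive differences without overlap are shown because these genes read higher together. Each is the stretch of 250 bases before the RefSeq start site on GRCm38.p6, on the gene's own strand. Capitals mark GAGGAA, a core that PU.1 binds, and CACGTG, the E-box core of basic helix-loop-helix factors such as TFEB, both searched on both strands. Spi1, the gene of PU.1, read 5.08 and 5.53 in control arrays against 5.89 and 6.44 in knockout arrays. Its difference was 0.86 (limma, adjusted p = 0.356), and its part in the levels of these genes was not tested. Msr1 had no entry. Nceh1 lies at chr3:27182754-27183003 on the plus strand, Pltp at chr2:164857709-164857958 and Apobec1 at chr6:122602445-122602694, both on the minus strand.
Nceh1: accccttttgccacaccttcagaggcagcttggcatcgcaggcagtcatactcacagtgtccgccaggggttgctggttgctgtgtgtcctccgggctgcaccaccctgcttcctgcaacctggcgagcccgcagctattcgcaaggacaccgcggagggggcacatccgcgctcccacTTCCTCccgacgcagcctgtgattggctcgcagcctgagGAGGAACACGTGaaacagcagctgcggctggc
Pltp: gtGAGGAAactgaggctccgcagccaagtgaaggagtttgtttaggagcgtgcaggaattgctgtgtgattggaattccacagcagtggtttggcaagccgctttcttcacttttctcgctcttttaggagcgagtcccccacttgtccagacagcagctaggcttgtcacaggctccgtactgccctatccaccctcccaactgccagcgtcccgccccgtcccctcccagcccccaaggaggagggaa
Apobec1: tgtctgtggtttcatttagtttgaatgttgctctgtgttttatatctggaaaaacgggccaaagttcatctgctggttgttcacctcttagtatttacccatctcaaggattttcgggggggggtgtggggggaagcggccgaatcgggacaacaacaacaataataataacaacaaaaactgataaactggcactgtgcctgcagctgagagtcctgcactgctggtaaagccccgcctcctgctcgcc

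Nceh1 held GAGGAA on both strands, at 71 and 32 bases before the start site counted from the first base of the match, and the second match adjoined CACGTG without overlapping it. Pltp held GAGGAA at 248 bases, at the far edge of the window, and the Apobec1 window held none of the letters searched. Across 32851 promoter windows of the same length, 23.3% held GAGGAA and 6.02% held CACGTG. The 22 measured members with an entry had 33 windows, of which 11 (33.3%) held GAGGAA and 4 (12.1%) held CACGTG. By gene, 9 held GAGGAA in at least 1 window, including Lipa, Olr1, Pparg and Apoe (which read lower without overlap), and Abca1, Lipe, Mgll and Nceh1 held CACGTG. The share by gene was not counted over all genes, so the count of 9 cannot be set against the share of windows. Exact direct repeats of AGGTCA spaced by 4 bases, the classical LXR element, or by 1 base, the PPAR element, were in 0 of the members' windows and in 0.0152% and 0.0335% of all windows. Letters this rare would hardly occur in 33 windows, so their absence there tells nothing about the members. These are matches of letters only.

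Among the uptake receptors, Msr1 stood apart from the other 5, and the median of all 6 was -0.10. That median was 0.07 without knockout replicate 1 and 0.52 over the 4 receptors kept by a filter at the 75th percentile of row means. Msr1, also called SR-A1, read 6.39 and 6.74 in control arrays against 8.07 and 8.38 in knockout arrays. The knockout mean of 8.22 ± 0.22 exceeded the control mean of 6.56 ± 0.24 (SD, n = 2 each) by 1.66 (95% interval 1.14 to 2.18; limma, adjusted p = 0.155). The gap between groups was larger than that between replicates, 0.34 in the controls and 0.31 in the knockouts, and the gene ranked 43 of 12550 by limma's p.

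Cd36, which takes up oxidised lipoproteins and fatty acids, varied more than any other member. Its values were 6.41 and 7.63 in control arrays against 7.07 and 9.24 in knockout arrays, so that the groups overlapped. The difference of 1.14 had a 95% interval of -1.0 to 3.29 (limma, adjusted p = 0.636), and knockout replicate 1 lay 0.055 above the control mean while replicate 2 lay 2.23 above it.

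Olr1, the oxidised lipoprotein receptor LOX-1, which is known from endothelial cells as well as from smooth muscle and macrophages, had the most negative difference of the members, -0.88 (95% interval -2.41 to 0.65). It rested on knockout replicate 1: Olr1 read 7.38 and 7.45 in the controls, 5.66 in knockout replicate 1 and 7.41 in replicate 2. Without knockout replicate 1 the difference was -0.0029. The endothelial markers' median against the control mean was -0.83 in knockout replicate 1 and -0.69 in replicate 2, and its part in the Olr1 values was not tested. Scarb1, the receptor of high-density lipoprotein, differed by -0.10, and the groups overlapped. Vldlr and Lrp8, relatives of the low-density lipoprotein receptor, lay below the controls in both knockout arrays, but only by 0.11 and 0.21, with 95% intervals that included 0 (-0.47 to 0.25 and -0.60 to 0.18).

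The efflux and transfer genes had a median difference of 0.58 over 4 members, which was -0.02 without knockout replicate 2. Pltp, the phospholipid transfer protein that remodels lipoproteins, read 5.39 and 5.54 in control arrays against 7.05 and 6.11 in knockout arrays. Its difference was 1.11 (SE 0.34, 95% interval 0.23 to 1.99; limma, adjusted p = 0.356). Both knockout arrays were above both controls, and Pltp, with Apoe, Ch25h and Apobec1, was one of only 4 members with a higher value in knockout replicate 1 than in replicate 2.

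Abca1 and Abcg1, the ATP-driven exporters of cellular cholesterol, had their highest value in knockout replicate 2. Abca1 read 5.58 and 5.48 in the controls, 5.65 in knockout replicate 1 and 6.35 in replicate 2, a difference of 0.47 (95% interval -0.23 to 1.16). Abcg1 read 5.03 and 4.57 in the controls, 4.65 in knockout replicate 1 and 6.34 in replicate 2. Its difference of 0.69 turned to -0.16 without knockout replicate 2, and neither exporter passed the test (limma, adjusted p = 0.555 and 0.696). Apoe, the lipoprotein component that accepts cellular cholesterol and is disrupted in every animal, still gave 4.97 and 5.0 in control arrays against 4.80 and 4.45 in knockout arrays. All animals were labelled Apoe-null, so this row does not check the groups' labels.

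Of the 6 hydrolases, Nceh1 and Lipa read higher without overlap, and for Lpl, Pnpla2, Lipe and Mgll the groups overlapped. Nceh1, the neutral hydrolase of the endoplasmic reticulum whose promoter is shown above, read 8.03 and 7.94 in control arrays against 8.96 and 9.13 in knockout arrays. Means of 7.98 ± 0.06 and 9.05 ± 0.13 (SD, n = 2 each) differed by 1.06 (95% interval 0.68 to 1.44; limma, adjusted p = 0.161). This was one of the tightest differences of the set, with replicate gaps of 0.08 and 0.18.

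Lipa, the lysosomal acid lipase, read 8.86 and 8.60 in control arrays against 9.36 and 9.80 in knockout arrays. The difference was 0.84, or 1.79-fold (SE 0.21, 95% interval 0.29 to 1.40; limma, adjusted p = 0.303). Lpl, the lipoprotein lipase of the cell surface, had knockout arrays at 7.40 and 8.21 and control arrays at 6.63 and 7.69, which overlapped. Its difference of 0.65 was smaller than the gap of 1.06 between the control replicates.

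The enzymes of droplet lipolysis had smaller differences. Pnpla2 (ATGL), which starts it, Lipe (hormone-sensitive lipase, which also hydrolyses cholesterol esters) and Mgll (monoglyceride lipase) differed by -0.15, 0.11 and -0.15, and no pair of groups was separate. Their 95% intervals ran from -0.96 to 0.66, from -0.27 to 0.49 and from -1.0 to 0.70. Differences of the size seen for Nceh1 lay outside all of these intervals, while one the size of Plin2 lay inside that of Pnpla2 and of Mgll.

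**Figure D2:**
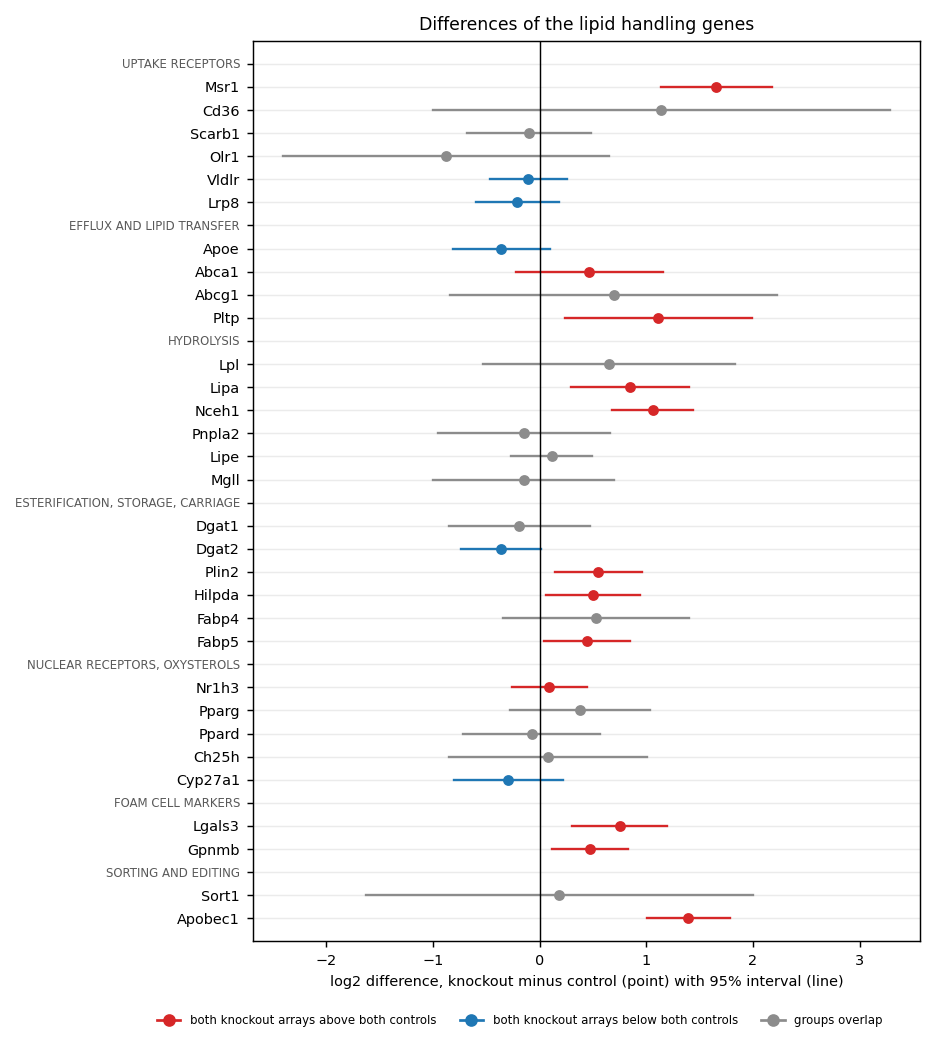
Log2 difference of each member, knockout minus control, with its 95% interval from limma; red marks members whose knockout arrays both exceed the controls, blue the reverse and grey an overlap. The narrow red intervals of Msr1, Nceh1 and Apobec1 lie right of 0, and Cd36, Abcg1, Olr1 and Sort1 have the widest intervals.

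Storage genes had a median difference of 0.47 over the 6 measured of 8. Plin2, the perilipin that coats droplets in foam cells, read 8.59 and 8.41 in control arrays against 8.96 and 9.14 in knockout arrays, a difference of 0.55 (SE 0.16; limma, adjusted p = 0.338). Hilpda, an inhibitor of ATGL that promotes droplet growth, read 5.55 and 5.47 against 5.85 and 6.16, a difference of 0.50 (SE 0.17; limma, adjusted p = 0.384). For both, every knockout value was above every control value.

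The enzymes that complete triglyceride synthesis had negative differences with 95% intervals that included 0. Dgat2 read 3.30 and 3.29 in control arrays against 2.85 and 3.02 in knockout arrays, a difference of -0.36 (95% interval -0.73 to 0.01). Its knockout mean of 2.93 was under the filter level. Dgat1 differed by -0.19 with overlapping groups, at 4.92 in knockout replicate 1 and 5.57 in replicate 2 against 5.38 and 5.49 in the controls.

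Both fatty acid binding proteins had positive differences. Fabp5 read 10.3 and 10.2 in control arrays against 10.5 and 10.8 in knockout arrays, which is a difference of 0.44 (SE 0.15; limma, adjusted p = 0.391), and its other rows gave differences of 0.45 to 1.59. Fabp4, the form of fat cells, macrophages and microvascular endothelium, read 8.85 and 9.71 in control arrays against 9.60 and 10.0 in knockout arrays. Its difference of 0.53 was within the control gap of 0.85, and the groups overlapped.

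The nuclear receptors that govern these genes had small differences with intervals that included 0. Pparg, which drives Cd36 and Fabp4, had the largest difference of this group, 0.38 (95% interval -0.28 to 1.03), with 4.67 and 5.04 in control arrays against 4.96 and 5.51 in knockout arrays. Nr1h3, the LXRα gene, read 3.03 to 3.17 over the 4 arrays, close to the filter level, and differed by 0.09, without overlap. Ppard differed by -0.08. Of the oxysterol enzymes, Ch25h, which makes 25-hydroxycholesterol, differed by 0.08 with a control gap of 0.98, and Cyp27a1, the sterol 27-hydroxylase, differed by -0.29, at levels of 2.97 to 3.52 and without overlap.

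Both measured foam cell markers were higher without overlap. Lgals3, the galactose-binding lectin galectin-3, read 4.64 and 4.94 in control arrays against 5.47 and 5.61 in knockout arrays, a difference of 0.75 (SE 0.17; limma, adjusted p = 0.269). Gpnmb, a glycoprotein of lipid-laden macrophages, read 10.7 and 10.8 against 11.2 and 11.3. Its difference of 0.48 (SE 0.14; limma, adjusted p = 0.345) was larger than the gap of 0.08 within either group.

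Apobec1 had the smallest p of all members and ranked 27 of 12550 genes. It read 7.25 and 7.43 in control arrays against 8.79 and 8.67 in knockout arrays. The difference of 1.39 had a 95% interval of 1.00 to 1.78 (limma, adjusted p = 0.144), against replicate gaps of 0.18 and 0.12. Sort1, the sorting receptor sortilin, had knockout arrays on either side of the controls, with 5.11 and 4.90 in the controls, 4.14 in knockout replicate 1 and 6.23 in replicate 2. Its difference of 0.18 was -0.86 without replicate 2 and 1.23 without replicate 1.

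The knockout arrays were not alike over these genes. Knockout replicate 2 was above replicate 1 for 27 of the 31 members (87.1%), against 52.9% of all genes tested and 14 of the 20 macrophage markers. Against the control mean, the members' median was 0.055 in knockout replicate 1 and 0.56 in replicate 2, while the macrophage median was 1.00 and 1.19. The gap between knockout arrays was larger than the group difference for 15 members, or 48.4%, and for 51.5% of all genes. Members with similar positive differences in both knockout arrays included Msr1 (1.5 and 1.81), Apobec1 (1.45 and 1.33), Nceh1 (0.97 and 1.15), Lgals3 (0.68 and 0.82), Plin2 (0.46 and 0.64) and Gpnmb (0.44 and 0.51). Vldlr (-0.11 and -0.10), Lrp8 (-0.24 and -0.18) and Cyp27a1 (-0.33 and -0.26) had similar negative ones. The differences of Cd36, Abcg1 and Abca1 lay mostly in replicate 2, and Abca1 (0.12 and 0.82) was above both controls in each knockout array. For Sort1 (-0.86 and 1.23) the knockout arrays departed in opposite directions. The sign of 8 members depended on a single array: Scarb1, Abcg1, Pnpla2, Mgll, Dgat1, Ppard, Ch25h and Sort1.

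**Figure D3:**
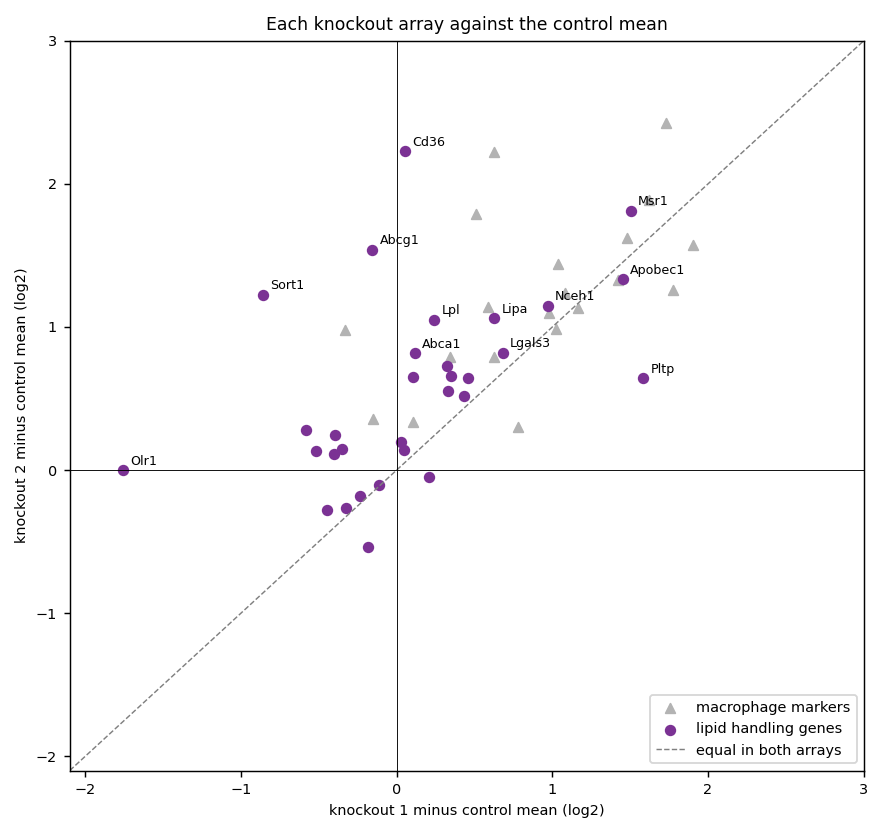
Each point is a gene, with its log2 difference from the control mean in knockout replicate 1 on the x axis and in replicate 2 on the y axis; purple circles are the members and grey triangles the macrophage markers. Most members lie above the dashed line of equality, with Cd36, Abcg1 and Sort1 far above it and Pltp below.

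Other genes of the pathway, none of them a member, were read in the same way. Of 50 tested among 63 listed, 0 passed the genome-wide test, 18 were higher and 6 lower without overlap, and the median difference was 0.10. The share higher lay above, and the share lower below, those of all genes tested, 16.7% and 27.5%. Because these lists were chosen with earlier results of these data known, such shares describe the lists and test nothing. The other scavenger and lipoprotein receptors had a median of 0.41 over 12 genes, with 6 higher and 2 lower without overlap, and 0.07 without control replicate 1. Here too the share higher lay above, and the share lower below, those of all genes tested. Trem2, which binds lipids on macrophages, differed by 1.57, Cxcl16, a chemokine that also binds oxidised lipoprotein, by 1.18, Cd68, a scavenger receptor of macrophage endosomes, by 0.82 and Scara3 by -0.80. The median without the filter, over 16 genes, was 0.09.

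Sterol trafficking and LXR pathway genes had a median of 0.12 over 16 tested, with 6 (37.5%) higher and 1 (6.25%) lower without overlap. The shares of all genes tested were 16.7% and 27.5%. Osbpl8, an oxysterol-binding protein relative, differed by 1.26, Mylip, the LXR-induced ligase that degrades lipoprotein receptors, by 0.78, Gramd1b, which carries plasma membrane cholesterol to the endoplasmic reticulum, by 0.64 and Npc1, the lysosomal cholesterol exporter, by 0.53. Droplet, lipolysis and fatty acid genes had a median of 0.02 over 22 tested, and -0.02 without knockout replicate 2. Of the 22, 6 (27.3%) were higher and 3 (13.6%) lower without overlap. Among them Slc27a1, a fatty acid transporter, differed by 0.87, Pla2g7, the lipoprotein-associated phospholipase, by 0.70, Plin4 by -0.61 and Lpin2, a phosphatidate phosphatase, by 0.58.

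**Figure D4:**
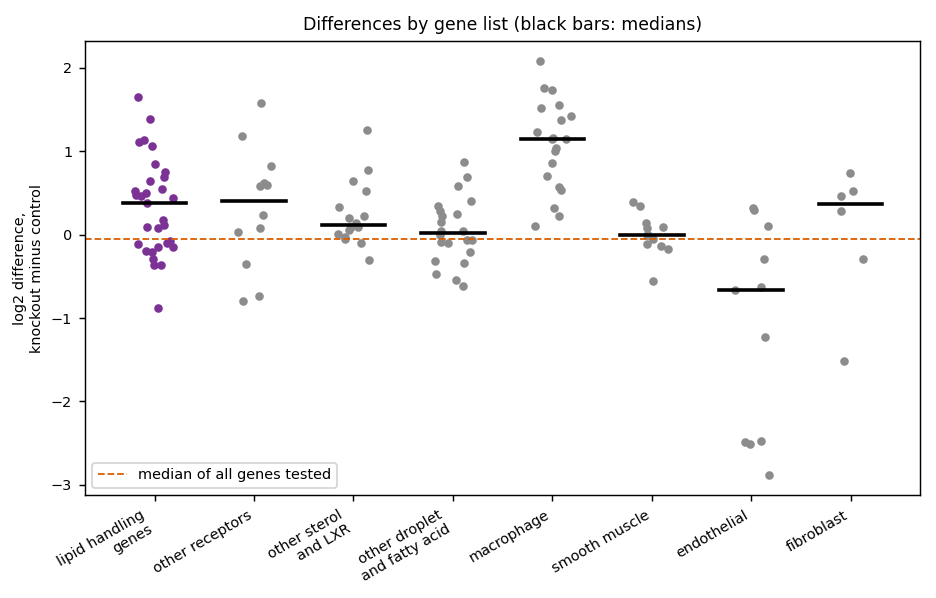
Log2 difference, knockout minus control, of each tested gene (points) by list, with medians as black bars and the median of all genes tested as a dashed line. The members' median is 0.38, between that of the droplet and fatty acid list at 0.02 and that of the macrophage markers at 1.15.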

How the data were processed

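Total RNA, amplified from 10 ng per the labels' protocols, was measured on Mouse Gene ST 2.1 strips. The authors deposited log2 values for 41345 rows, made with the RMA method according to the submitters' processing notes; the version, the chip definition and the build behind them are not given in the sources. The log base was taken from the value range, 1.17 to 12.4. Depth does not apply to arrays, and their number limits the precision.

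Symbols came from the platform annotation: 23521 had 1 symbol, 1814 several and 16010 were not listed. For a gene with several rows the one with the highest mean was kept. Genes with a mean of at least 3.02 were tested, 12550 in number, and 9630 were left out. Knockout minus control was estimated by limma 3.58.1 (lmFit, then eBayes; R 4.3.3), two-sided, with Benjamini-Hochberg adjustment over all genes tested. Tested on simulated data for this comparison over 12550 genes, the fit recovered 4 of 50 genes shifted by a log2 size of 1, 41 of 50 by 2, 48 of 50 by 3 and 49 of 50 by 4, with 9 false calls.

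The members and lists were chosen with earlier results of these data known. Values by array are given for members with a difference of at least 0.5 and no overlap, and for the one with the largest difference in each role group. Others shown by array (Abca1, Abcg1, Lpl, Apoe, Dgat2, Fabp4, Fabp5, Sort1, Cd36, Olr1, Dgat1, Gpnmb) were picked once their values were known, as were Spi1 and the endothelial markers named. Each other list names its 4 tested genes of largest absolute difference among those without overlap. Promoters are from RefSeq, read from a table on GRCm38.p6, and matplotlib 3.10.9 drew the plots. Protein sequences were not used here.

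Alternatives were the title number as a block, other filters, normalisations, row choices and variance estimates, and leaving out each array.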

Additional observations from a re-analysis of the deposited data

How the results depend on the processing

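Across 13 refits of all genes, limma called 0 members and 0 genes at an adjusted p under 0.05. The smallest adjusted p of a member was 0.0764. At an adjusted p under 0.25 there were 3 members and 251 genes. With the title number as a replicate block the member count stayed at 0. The median of 0.38 could not move, because each number occurs once in each group. The titles do not say that a number marks a pair, so the numbers were not taken as pairs. Deviations of same-numbered arrays correlated at 0.045 over genes, which cannot decide whether they were pairs. The main fit had 0 calls, so there was none for the block to remove.

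The stricter filter kept 24 members. It left 0 members lower without overlap and gave medians of 0.52 for uptake receptors, 0.59 for other receptors, 0.12 for droplet and fatty acid genes, -2.49 for endothelial markers, 0.24 for all other pathway genes and -0.080 for all genes, over fewer genes each. With no filter the other receptors had a median of 0.090, with quantile normalisation 0.44 and with centred arrays 0.38; centring gave -0.082 for all genes. The mean of all rows turned the nuclear receptor median to -0.076, with the second Ch25h row at -0.49.

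Leaving out each array in turn gave 12 to 23 members higher and 5 to 12 lower without overlap, against 27.7% to 31.7% and 41.4% to 43.4% of all genes, and a median of 0.055 to 0.56. Role medians ranged from -0.17 to 0.072 for uptake, -0.021 to 0.73 for efflux, 0.13 to 0.67 for hydrolysis, 0.29 to 0.60 for storage, -0.074 to 0.14 for nuclear receptors, 0.52 to 0.71 for foam cell markers and 0.30 to 1.28 for sorting and editing. List medians ranged from 0.069 to 0.44 for other receptors, 0.038 to 0.25 for sterol genes, -0.017 to 0.097 for droplet genes, 0.048 to 0.18 for all other pathway genes, 1.00 to 1.22 for macrophage, -0.24 to 0.13 for smooth muscle, -1.01 to -0.61 for endothelial, -0.19 to 0.27 for adipocyte and -0.089 to 0.55 for fibroblast markers, and -0.059 to -0.043 for all genes. The cause of these shifts was not tested. Signal over background was not measured, which limits the dim members Dgat2, Lipe, Nr1h3 and Cyp27a1.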

Other observations

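Fabp5, which carries fatty acids and has near-identical processed copies in the genome, was read by 4 rows that disagreed in size. The row used and a second row gave differences of 0.44 and 0.45, while the others gave 1.59 and 1.25, all with both knockout arrays above both controls. The row with the largest difference read 8.50 and 7.96 in control arrays against 9.40 and 10.2 in knockout arrays. Which rows share probes with the copies was not tested.

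The second rows of Nceh1 and Lpl gave differences of 1.07 and 0.59, close to the 1.06 and 0.65 of the rows used. The second rows of Ch25h and Sort1 gave -0.49 and -0.03, against 0.08 and 0.18, and their groups overlapped. The second Sort1 row read 3.32 and 3.42 in control arrays against 3.32 and 3.37 in knockout arrays, so the wide spread of the row used (4.14 and 6.23 in the knockouts) did not appear in it.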
